A study of Coturnix japonica and Phalacrocorax auritus with 29 samples.

Results

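The comparison described is that of 5 embryonic livers of Japanese quail from eggs dosed with a medium amount of chlorpyrifos against 5 livers from eggs given the solvent. These are 10 of the 29 libraries of the series, and they were taken by their group labels alone. Read counts were available for 22845 features, each a protein name, and 14927 of them passed the filter on low counts. The other quail group, 5 livers at the high dose, shared the model fit and is given beside the medium dose where it places a value.

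The medium dose, high dose and control livers all came from eggs injected into the air cell before incubation began, at 37 °C and 60% humidity. The medium and high dose eggs received chlorpyrifos, an organophosphate insecticide, and the control eggs received DMSO alone. By the labels, the nominal amounts were 0.4, 4 or 40 µg per g egg, without saying which of them medium and high stand for, and the high dose was set from earlier mortality data of the species. All medium and high dose embryos were labelled day 9 of development, as were control replicates 1 to 4, whereas control replicate 5 was labelled day 16. No sex was given, and each library came from the liver of a single embryo. RNA was sequenced as paired reads of 101 bp.

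Chlorpyrifos itself is a weak inhibitor of esterases. Liver cytochrome P450 enzymes convert it to chlorpyrifos-oxon, which binds the active serine of acetylcholinesterase, or cleave it to products without that action, and paraoxonases, carboxylesterases and butyrylcholinesterase hydrolyse or trap the oxon. P450 genes of the CYP2 and CYP3A families are raised in bird liver through the nuclear receptor NR1I3 and its relatives, and CYP1A genes through the aryl hydrocarbon receptor AHR. Heme made by a pathway that begins with ALAS1 is the prosthetic group of every P450. In the embryo the liver also makes plasma proteins and handles the lipid that reaches it from the yolk.

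The libraries were alike in depth and composition, with exceptions that are repeated beside the results they touch. Totals ran from 11548222 to 27778954 counts in the medium dose livers and from 15094176 to 21964074 in the controls. Hepatocyte markers led every library, with a mean over 17 genes of 9.59 to 10.46 log2 CPM (counts scaled to library size by TMM) in medium dose livers and 10.06 to 10.42 in controls. Of the 10 libraries, medium 1, control 3 and medium 5 were the least like the rest, with mean Spearman correlations with the other 9 of 0.9671, 0.9723 and 0.9725, against 0.9759 to 0.9780 for the other 7. Medium 1 had the lowest hepatocyte and macrophage marker levels of the 10 and the highest skeletal and heart muscle level, at 3.61 log2 CPM over 17 muscle genes, against 1.61 to 2.36 in the other 4 medium dose livers and 1.44 to 2.53 in controls. Genes that define lung were too low to test. The labels present replicates as separate samples, and p-values measure the spread between them.

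No gene passed the test for a difference between medium dose and control livers. Of 14927 features, 0 (0%) reached a Benjamini-Hochberg adjusted p under 0.05 by the quasi-likelihood test of edgeR, and the smallest adjusted p was 0.603, shared by 6 features. At an unadjusted p under 0.05 there were 646 features (4.33%), of which 329 (2.20%) were higher and 317 (2.12%) lower in medium dose livers. The median log2 fold change of all tested features was 0.01. With the same fit, 282 features (1.89%) were called between high and medium dose, 206 (1.38%) higher and 76 (0.509%) lower at the high dose, and 531 (3.56%) were called between high dose and control. Leaving out medium replicate 2, 3, 4 or 5 or high replicate 3 lowered the first of these counts to 174, 168, 166, 181 or 180. Leaving out control replicate 1, 2 or 4 or high replicate 5 lowered the second to 303, 347, 309 or 340. The medium dose against control count stayed at 0 with any single library left out, control 5 included.

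The precision of the fit sets how large a change could have passed unseen. For 12210 features (81.8%) the 95% interval of the medium dose over control fold change lay within a 2-fold change in either direction, and for 8701 (58.3%) within 1.5-fold. This share depended on abundance. It was 94.3% of 6927 features between 8 and 64 CPM and 95.7% of 1925 features at 64 CPM or more, but 72.1% of 4932 features between 1 and 8 CPM and 24.1% of 1143 features below 1 CPM. For features below 1 CPM the interval mostly reached past 2-fold at this depth and spread. These intervals are for single features and are not adjusted for the number of tests. An estimated change past 2-fold could therefore miss a call between 1 and 8 CPM as well, as TRAF1 below shows. The median SD of log2 CPM between livers was 0.251 at the medium dose and 0.234 in controls, so that the groups scattered to a similar extent. On the leading principal component, which held 22% of the variance of the 15 quail libraries, control livers lay between -25.9 and -17.1, medium dose livers between -21.2 and -5.96, and high dose livers between 17.1 and 54.5.

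**Figure D1:**
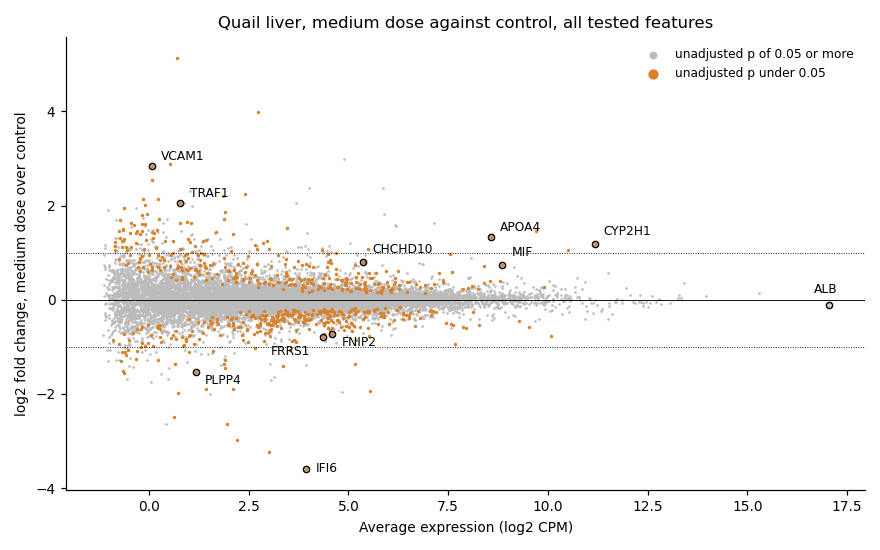
Log2 fold change of medium dose over control (vertical axis) against average expression over the 15 quail libraries in log2 CPM (horizontal axis) for the 14927 tested features, with features at an unadjusted p under 0.05 in orange and dotted lines at a 2-fold change. The cloud narrows with expression, 247 features lie past 2-fold, and none of the labelled genes passed the adjusted test.

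In 73 features (0.489% of those tested) every medium dose liver lay above every control liver, and in 60 (0.402%) every medium dose liver lay below. Both counts grew with any library left out, to between 109 and 176 higher and between 82 and 161 lower, since smaller groups overlap less often. The features with the smallest p in each direction are described next by what their proteins do. They were picked for their p, so their values are a description.

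Among the genes with higher levels in medium dose livers, the smallest p belonged to TRAF1, an adaptor of TNF receptors and a target of NF-kB. TRAF1 stood at 3.19, 2.04, 1.59, 2.33 and 4.97 CPM in medium dose livers, against 0.272, 0.838, 0.619, 1.15 and 0.494 CPM in controls. The groups did not overlap. The log2 fold change was 2.06 ± 0.41 (SE), with an edgeR adjusted p of 0.603. At the high dose TRAF1 averaged 1.49 ± 0.574 CPM (SD, n = 5), and the high dose did not pass the test against medium.

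VCAM1, an adhesion molecule by which activated endothelium holds leukocytes, stood at 3.56, 0.52, 1.11, 1.43 and 4.36 CPM in medium dose livers, against 0.544, 0.451, 0.275, 0.0639 and 0.11 CPM in controls. Medium 2 fell inside the control range, and medium 1 and medium 5 were well above the other 3. On the log2 scale the fold change was 2.84 ± 0.60, and it was 1.74 without medium 1, medium 5 and control 3. High dose livers averaged 0.498 ± 0.138 CPM of VCAM1 (SD, n = 5). In bulk tissue, more cells of a type and more RNA per cell cannot be told apart. The remaining inflammatory gene among the 12 was MIF, a cytokine that also acts as a tautomerase. MIF stood at 1002, 581, 512, 593 and 500 CPM in medium dose livers, against 378, 339, 469, 306 and 427 CPM in controls. All 5 medium dose livers were above all controls, with medium 1 far above the rest, and the log2 fold change was 0.73 ± 0.21, or 0.51 without medium 1.

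Genes of mitochondrial proteins made up a pair. CHCHD10, a protein of the intermembrane space tied to crista structure, stood at 51.1, 45.7, 46.7, 50.0 and 43.3 CPM in medium dose livers, against 35.1, 28.1, 19.5, 22.9 and 29.8 CPM in controls. Every medium dose liver was higher, the log2 fold change was 0.80 ± 0.18, and the edgeR adjusted p was 0.893. High dose livers averaged 48.7 ± 12.2 CPM (SD, n = 5), with a log2 fold change of 0.04 for high over medium dose. CISD3, an iron-sulfur protein of the mitochondrial matrix, stood at 39.3, 30.5, 30.0, 32.2 and 27.6 CPM in medium dose livers, against 24.6, 24, 20.2, 20.8 and 27.6 CPM in controls. Its lowest medium dose liver and its highest control were level to 3 digits, the log2 fold change was 0.44 ± 0.12, and high dose livers averaged 23 ± 3.47 CPM (SD, n = 5).

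Transporters made up another pair. SLC16A5, a monocarboxylate carrier, stood at 6.43, 1.88, 2.91, 5.7 and 6.98 CPM in medium dose livers, against 0.998, 1.61, 0.757, 2.24 and 1.59 CPM in controls, a log2 fold change of 1.72 ± 0.41. Only medium 2 lay inside the control range. SLC30A10, which in mammals carries manganese out of hepatocytes, stood at 272, 219, 156, 212 and 230 CPM in medium dose livers, against 121, 135, 140, 176 and 166 CPM in controls, a log2 fold change of 0.56 ± 0.16. SLC30A10 fell at the high dose relative to the medium dose, to 97.1 ± 21.3 CPM against 218 ± 41.4 CPM (SD, n = 5 each). That log2 fold change of -1.16 ± 0.16 had an edgeR Benjamini-Hochberg adjusted p of 0.0012 and kept its call in all 23 alternatives.

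WSB1, a substrate receptor of a ubiquitin ligase, followed the same order. It stood at 334, 279, 168, 234 and 298 CPM in medium dose livers, against 157, 182, 195, 175 and 161 CPM in controls. Medium 3 lay inside the control range and the other 4 above it, a log2 fold change of 0.59 ± 0.15. WSB1 fell at the high dose relative to the medium dose by 0.87 ± 0.15 on the log2 scale, with a mean of 144 ± 16.5 CPM (SD, n = 5), and the edgeR adjusted p was 0.00637, a call that 1 of 23 alternatives lost. LIMK1, a kinase that controls actin turnover, had 14.2 ± 3.86 CPM in medium dose livers and 9.44 ± 1.52 CPM in controls (SD, n = 5 each). Its call between high and medium dose had an edgeR adjusted p of 0.0477 and was lost in 17 of 23 alternatives. TRPS1, a GATA-type repressor, EXOSC5, a subunit of the RNA exosome, and EML6, a microtubule-associated protein, complete the 12. Their log2 fold changes were 0.88, 0.69 and 0.56, and the groups of TRPS1 and of EXOSC5 did not overlap.

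Among the genes with lower levels in medium dose livers, the smallest p of all belonged to PLPP4, a lipid phosphate phosphatase. PLPP4 stood at 0.732, 1.56, 1.06, 1.33 and 1.13 CPM in medium dose livers, against 3.08, 4.83, 3.23, 3.58 and 2.25 CPM in controls. The groups did not overlap, and the log2 fold change was -1.53 ± 0.29. High dose livers averaged 1.97 ± 0.768 CPM (SD, n = 5).

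FRRS1, a reductase of ferric iron, stood at 15.9, 19.4, 18.5, 19.2 and 12.1 CPM in medium dose livers, against 29.5, 25, 38.3, 27.2 and 27.5 CPM in controls. Every medium dose liver was lower, with a log2 fold change of -0.79 ± 0.16, and high dose livers averaged 14.8 ± 3.17 CPM (SD, n = 5). FNIP2 binds folliculin and takes part in AMPK and lysosomal signalling. It stood at 18.6, 24.7, 23.9, 27.0 and 17.8 CPM in medium dose livers, against 43.9, 38.9, 32.6, 40.0 and 29.0 CPM in controls. The groups were again apart, with a log2 fold change of -0.72 ± 0.15 for medium dose over control. FNIP2 was lower still at the high dose, at 13.4 ± 2.32 CPM (SD, n = 5). The high dose over medium dose log2 fold change was -0.74 ± 0.15 with an edgeR adjusted p of 0.0191, a call that 6 of 23 alternatives lost, with an adjusted p of up to 0.0592 there.

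The other named genes on the lower side differed by less, and most had narrow groups. STK4, the Hippo pathway kinase, had 20.9 ± 1.72 CPM in medium dose livers and 26.7 ± 1.35 CPM in controls (SD, n = 5 each), with no overlap. CDAN1, which binds histone chaperones and is needed in erythroid nuclei, had 18.6 ± 1.33 CPM and 26.8 ± 4.28 CPM in medium dose and control livers, also with no overlap. TOMM34, a chaperone for mitochondrial precursors, GARNL3, a GTPase activator by its name, and NSUN6, an RNA methyltransferase, were lower in every medium dose liver than in any control. Their log2 fold changes were -0.62, -0.35 and -0.41. PSD3, an exchange factor for ARF6, and PTPN3, a tyrosine phosphatase, overlapped between groups, with log2 fold changes of -0.59 and -0.49. IFI6 belongs to the interferon list below.

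**Figure D2:**
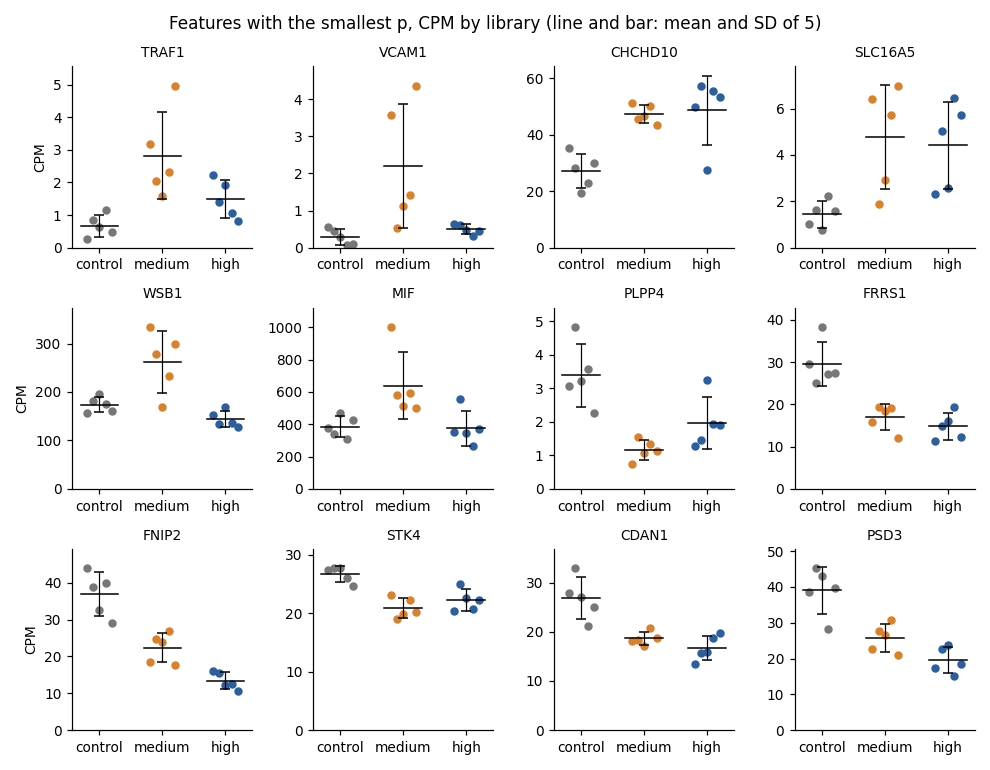
CPM in each library for 12 of the genes with the smallest p between medium dose and control, with horizontal lines for the mean and bars for the SD of 5 libraries, in order of dose. TRAF1, CHCHD10, MIF, PLPP4, FRRS1, FNIP2, STK4 and CDAN1 show medium and control livers apart, while 1 medium dose liver each of VCAM1, SLC16A5 and WSB1 and 1 control liver of PSD3 fall within the other group.

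Where groups did not overlap, the folds beyond these genes mostly concerned low-count features. CNN1, the smooth muscle protein calponin, stood at 1.67, 0.641, 1.16, 0.665 and 8.55 CPM in medium dose livers, against 0.59, 0.451, 0.619, 0.639 and 0.439 CPM in controls. The log2 fold change of CNN1 was 2.14 ± 0.63, and 0.90 without medium 5. A tubulin alpha-1C chain-like feature had 3.08, 8.05, 6.93, 10.1 and 3.31 CPM in medium dose livers and 2.54, 2.06, 2.13, 2.94 and 2.42 CPM in controls. SDC3, a heparan sulfate proteoglycan, CAVIN4, a caveola protein known from muscle, and TMEM139 had log2 fold changes of 0.98, 0.94 and 0.94. TMEM139 had at most 0.423 CPM in any of the 10 livers.

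On the lower side, keratin-like features stood out by fold. The keratin type II cytoskeletal 4-like feature had 1.41, 2.52, 1.96, 2.61 and 2.35 CPM in medium dose livers, against 3.99, 4.9, 5.71, 5.56 and 7.85 CPM in controls, a log2 fold change of -1.36 ± 0.26. The keratin type I cytoskeletal 19-like feature had 0.575, 0.801, 0.318, 0.855 and 0.349 CPM in medium dose livers, against 1.45, 2.0, 1.1, 1.73 and 1.43 CPM in controls, also with a log2 fold change of -1.36. This feature rose at the high dose relative to the medium dose, by 1.92 ± 0.30 on the log2 scale (edgeR adjusted p of 0.00254), to 2.27 ± 0.556 CPM (SD, n = 5). Reads of similar keratins can be shared out among such names, so that single values are uncertain. KRT19 itself, a marker of bile duct cells, had a log2 fold change of -0.60 between medium dose and control. The bile duct list of 12 tested markers had a median of -0.09. PLEKHF1, an endosomal protein, and features named chromosome 1 C22orf23 homolog, DEK-like and Smaug homolog 1-like were lower in every medium dose liver, with log2 fold changes of -0.95, -1.29, -0.82 and -0.79.

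With DESeq2 in place of edgeR, 6 features passed an adjusted p under 0.05 between medium dose and control, which are the 6 that shared the smallest adjusted p in edgeR. TRAF1, PLPP4 and the keratin type II cytoskeletal 4-like feature had a DESeq2 adjusted p of 0.00502. VCAM1 had 0.00937, FRRS1 0.0216 and FNIP2 0.0235 by DESeq2. Under limma voom, a replicate block, a covariate for Z-linked genes, other size factors, no filter, a fit of only these 2 groups or any library left out, none of the 6 passed.

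Of the cytochrome P450 and heme synthesis list, 39 of 50 genes could be tested and 0 passed between medium dose and control. At an unadjusted p under 0.05, 2 were higher (CYP2H1, CYP2H2) and 1 lower (CYP2U1). That is 7.69% of the list in either direction, against 4.33% of all tested features. The list's median log2 fold change was 0.01, equal to that of all tested features. Between high and medium dose, 16 of the 39 rose and 0 fell, against 1.38% and 0.509% of all tested features. The filter on low counts used all 3 quail groups. Members such as CYP2C23B and CYP3A8 passed it only through the high dose libraries, so their place among the 16 is not independent of the filter. Taking every feature named as a cytochrome P450, 57 were tested, and 4 were higher and 2 lower at an unadjusted p under 0.05 (10.5% in either direction, against 4.33% of all tested features). Their median was 0.12. CYP2C23B and CYP3A8 count among the 39 and among the 57 tested. Reads of near-identical P450 genes may be divided among names, so the values of single CYP1A, CYP2 and CYP3A genes are uncertain.

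CYP2H1 and CYP2H2, the phenobarbital-inducible P450 genes of chicken liver, came closest to a difference. CYP2H1 stood at 12.6, 5.2, 4.13, 8.89 and 6.72 CPM in medium dose livers, against 0.136, 1.93, 5.71, 5.69 and 3.46 CPM in controls. The ranges overlapped between 4.13 and 5.71 CPM, and control 1 was far below the other controls. The log2 fold change was 1.18 ± 0.53 with a 95% interval of 0.04 to 2.32, and the edgeR adjusted p was 0.999. CYP2H2 stood at 11.5, 3.64, 4.5, 8.55 and 4.36 CPM in medium dose livers, against 0.817, 2.58, 6.19, 4.48 and 1.92 CPM in controls, a log2 fold change of 1.06 ± 0.45. A CYP2H1-like feature had 2.25, 1.52, 0.741, 2.0 and 1.05 CPM in medium dose livers, against 0, 0.129, 0.964, 1.47 and 0.384 CPM in controls. All 3 features were highest in medium 1. At the high dose the same 3 features were larger by orders of magnitude, with means of 6908 ± 2099, 4344 ± 1239 and 2494 ± 947 CPM (SD, n = 5 each). For CYP2H1 the log2 fold change of high over medium dose was 9.84 ± 0.69, with an edgeR adjusted p of 1.2e-06.

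CYP2C genes showed no such gap between medium dose and control. CYP2C23B had 6 reads in the 5 medium dose libraries together and 3 in the 5 control libraries, a ratio of 1.80 after scaling with an exact 95% counting interval of 0.384 to 11.1. The high dose libraries held 5331 reads of it, 757 times the medium dose level, with an interval of 348 to 2064. CYP2C18 had 8.37 ± 5.40 CPM in medium dose livers and 7.97 ± 4.28 CPM in controls (SD, n = 5 each), and 235 ± 58.4 CPM at the high dose. CYP2C19 had 3.92 ± 2.56 CPM in medium dose livers and 3.79 ± 2.14 CPM in controls (SD, n = 5 each). CYP2U1, a P450 that oxidises long-chain fatty acids, had 30.3 ± 4.27 CPM in medium dose livers and 42.7 ± 7.52 CPM in controls (SD, n = 5 each), a log2 fold change of -0.49 ± 0.23.

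CYP3A genes, whose products oxidise steroids and many drugs, varied more between livers than between groups. CYP3A37 stood at 2.72, 3.36, 1.38, 8.22 and 0.611 CPM in medium dose livers, against 1.32, 0.773, 1.51, 1.15 and 3.84 CPM in controls, and averaged 122 ± 55.3 CPM at the high dose (SD, n = 5). The medium dose range enclosed the control range, and the log2 fold change of 0.95 had an interval of -0.32 to 2.23. CYP3A9-like had 13.3, 25.1, 8.94, 50.0 and 4.45 CPM in medium dose livers and 6.67, 4.57, 14.5, 7.67 and 22.3 CPM in controls. In both features medium 4 was the highest medium dose liver and control 5 the highest control. CYP3A8 was near the limit of detection, at 0 to 1.09 CPM in medium dose livers and 0 to 0.439 CPM in controls.

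The CYP1A genes, targets of the aryl hydrocarbon receptor, were abundant in both groups. CYP1A5 stood at 671, 856, 1303, 942 and 714 CPM in medium dose livers, against 659, 529, 882, 781 and 620 CPM in controls, a log2 fold change of 0.37 ± 0.27. CYP1A4 had 532 ± 210 CPM in medium dose livers and 425 ± 96.0 CPM in controls (SD, n = 5 each), and CYP1A1 had 48.1 ± 13.5 CPM and 39.6 ± 9.09 CPM in the same order. All 3 were highest in medium 3 among medium dose livers and in control 3 among controls. Their 95% intervals ran from -0.31 at the lowest to 0.95 at the highest. At the high dose CYP1A4 and CYP1A5 averaged 2436 ± 915 and 4276 ± 1991 CPM (SD, n = 5 each), and all 3 CYP1A genes rose relative to the medium dose, with log2 fold changes of 2.20 to 2.49. Neither regulator passed the test between medium dose and control. AHR had 86.0 ± 23.3 CPM in medium dose livers and 99.6 ± 25.4 CPM in controls (SD, n = 5 each). NR1I3 stood at 2.77, 9.93, 4.34, 4.32 and 3.05 CPM in medium dose livers, against 5.04, 8.96, 7.09, 7.93 and 4.67 CPM in controls. Medium 2 lay above every control and the other 4 medium dose livers below every control. The log2 fold change of NR1I3 was -0.44 with a 95% interval of -1.12 to 0.23. With single libraries left out it ran from -0.88 to -0.29.

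Genes of heme synthesis and the electron donors of P450 had narrow intervals. ALAS1 stood at 127, 97.5, 108, 133 and 87.0 CPM in medium dose livers, against 139, 77.7, 142, 83.2 and 139 CPM in controls. The ranges coincided, with a log2 fold change of -0.07 and a 95% interval of -0.53 to 0.39, whereas ALAS1 averaged 2298 ± 674 CPM at the high dose (SD, n = 5), a log2 rise of 4.38 ± 0.25 over the medium dose. POR, the reductase that passes electrons to every microsomal P450, had 66.0 ± 7.25 CPM in medium dose livers and 77.6 ± 6.48 CPM in controls (SD, n = 5 each). Its log2 fold change was -0.23 ± 0.11 between medium dose and control and 0.82 ± 0.11 between high and medium dose. CYB5A, the alternative electron donor cytochrome b5, and PGRMC1, a heme-binding partner of P450, had log2 fold changes of -0.01 and 0.03 between medium dose and control, with intervals of -0.32 to 0.30 and -0.24 to 0.30. Both rose between medium and high dose, by 1.39 and 1.20 on the log2 scale. The later heme enzymes ALAD, UROS, UROD, CPOX, PPOX and FECH had log2 fold changes between -0.10 and 0.06. HMOX2, a heme oxygenase, had 19.1 ± 3.71 CPM in medium dose livers and 15.3 ± 1.44 CPM in controls (SD, n = 5 each), a log2 fold change of 0.32 ± 0.15.

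**Figure D3:**
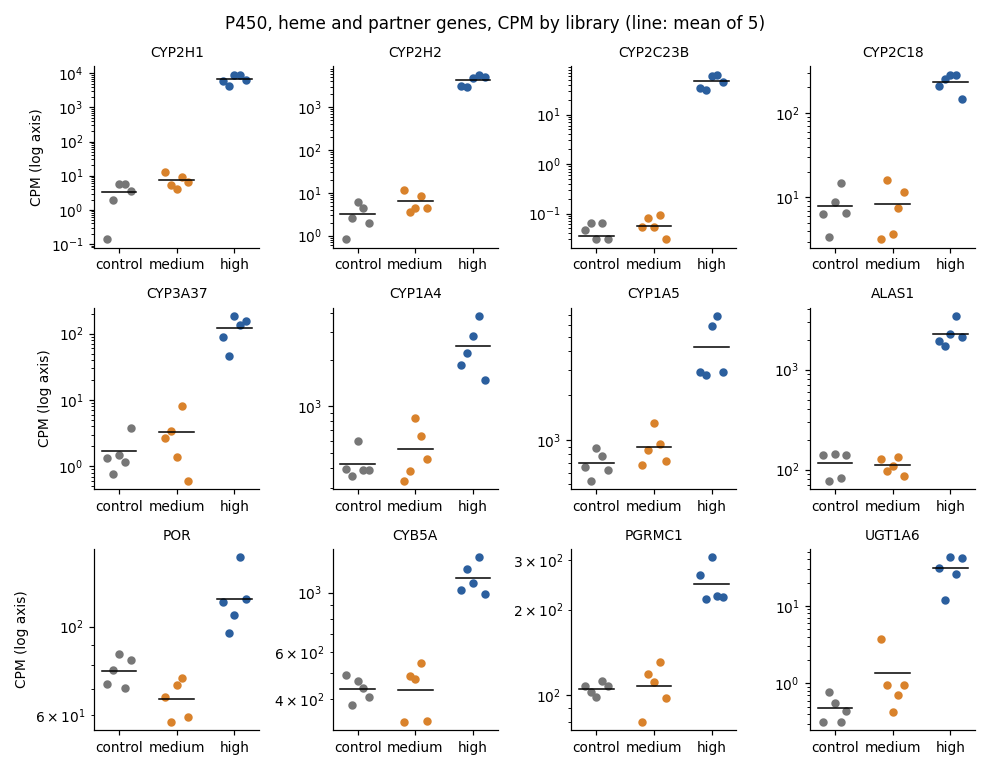
CPM on a log axis in each library for P450 genes, ALAS1, P450 partners and the conjugation gene UGT1A6, in order of dose, with the mean of 5 libraries as a line; a library with no read is drawn at the lowest level of its panel. Medium and control livers overlap in all 12 panels, while high dose livers lie above both in all of them.

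Of the esterase and serine hydrolase list, which holds the direct targets of organophosphates, 45 of 55 genes could be tested, 0 passed and the median log2 fold change was 0.00. For 42 of the 45 the 95% interval lay within a 2-fold change. The same held for 81.8% of all tested features and 94.3% of those between 8 and 64 CPM. At an unadjusted p under 0.05, 0 were higher and 1 was lower (2.22%, against 4.33% of all tested features). That gene was LPL, the lipase that frees fatty acids from circulating lipoproteins. LPL stood at 49.1, 84.8, 64.9, 59.8 and 50.4 CPM in medium dose livers, against 108, 77.8, 107, 66.7 and 59.2 CPM in controls. The ranges overlapped, with a log2 fold change of -0.44 ± 0.20.

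BCHE, butyrylcholinesterase, the scavenger of organophosphates that liver secretes, stood at 35.5, 34.1, 46.4, 42.7 and 46.6 CPM in medium dose livers, against 38.7, 52.0, 51.3, 37.7 and 40.2 CPM in controls. The log2 fold change was -0.10 with a 95% interval of -0.36 to 0.16. PON1 and PON2, paraoxonases that hydrolyse lactones and, in the case of mammalian PON1, oxons, had log2 fold changes of -0.08 and -0.10. PON1 stood at 171, 220, 208, 197 and 141 CPM in medium dose livers, against 237, 145, 193, 229 and 186 CPM in controls, with an interval of -0.39 to 0.23. PON2 had 364 ± 43.8 CPM in medium dose livers and 391 ± 46.2 CPM in controls (SD, n = 5 each).

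Carboxylesterases of the CES1 type were measured as CES1L1, with 27.4 ± 5.06 CPM in medium dose livers and 22.7 ± 5.52 CPM in controls, and CES1L2, with 43.4 ± 8.68 CPM in medium dose livers and 38.9 ± 16.2 CPM in controls (SD, n = 5 each). Their intervals of -0.48 to 1.03 and -0.44 to 0.76 were among the wider ones of the list. AADAC, a microsomal deacetylase of drugs, had a log2 fold change of 0.11. FAAH, which degrades anandamide, and PNPLA6, the neuropathy target esterase that some organophosphates inhibit, had log2 fold changes of 0.01 and 0.00, with intervals of -0.24 to 0.26 and -0.28 to 0.29. LIPC, hepatic lipase and the most abundant member, had 1342 ± 175 CPM in medium dose livers and 1434 ± 146 CPM in controls (SD, n = 5 each).

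ACHE, the acetylcholinesterase gene and main toxic target, was too low in liver to test. It had 16, 4, 2, 7 and 8 reads in the medium dose libraries, 37 in all, and 11, 2, 16, 0 and 4 reads in the control libraries, 33 in all. CES2 had 3 reads in the medium dose libraries and 5 in the control libraries. A feature named acetylcholinesterase-like, chosen after its values were seen, stood at 9.20, 2.76, 2.12, 5.27 and 8.11 CPM in medium dose livers, against 5.26, 2.06, 10.9, 1.53 and 2.64 CPM in controls. Within each group its livers differed several-fold, and the log2 fold change of 0.29 had an interval of -0.86 to 1.44. Between high and medium dose, 1 of 45 tested genes of the esterase list rose, against 1.38% of all tested features. It was the lysosomal phospholipase PLA2G15, which rose by 1.01 ± 0.24 on the log2 scale with an edgeR adjusted p of 0.0412.

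**Figure D4:**
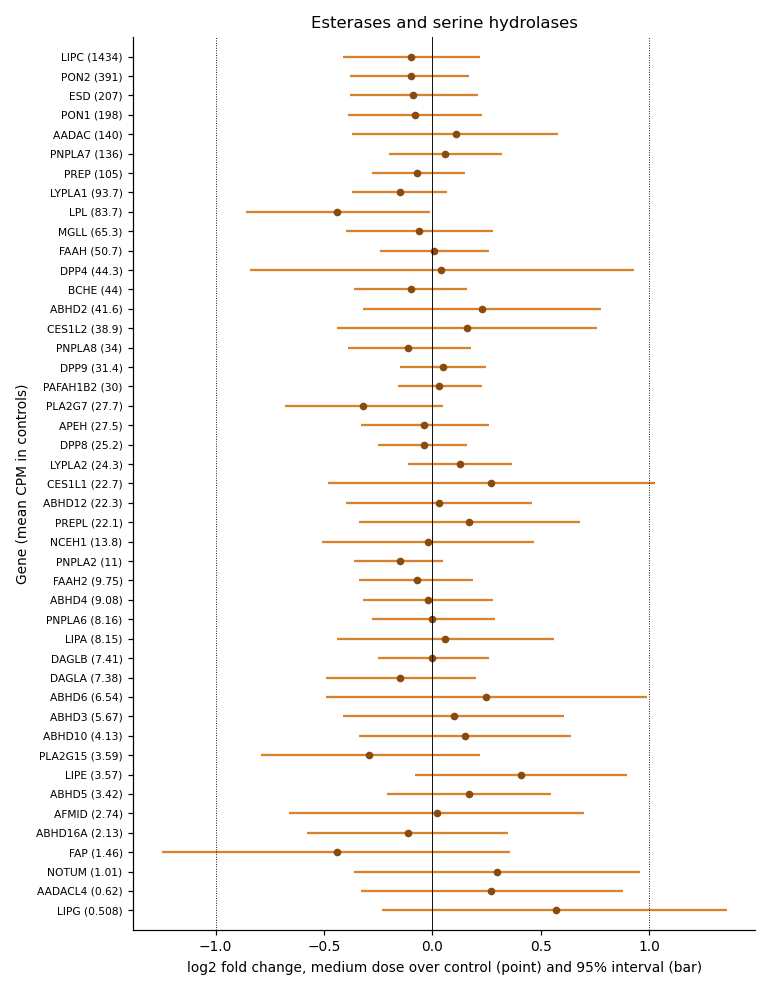
Log2 fold change of medium dose over control (points) with its 95% interval (bars) for the 45 tested esterase and serine hydrolase genes, ordered by their mean CPM in controls, which stands in parentheses; dotted lines mark a 2-fold change. The intervals of CES1L1, FAP and LIPG cross a dotted line and those of the other 42 do not.

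Conjugation, transport and antioxidant lists likewise held no call. Of 54 tested conjugation and transport genes, 2 were higher and 2 lower at an unadjusted p under 0.05 (7.41% in either direction, against 4.33% of all tested features), with a median of -0.07. UGT1A6, a glucuronosyltransferase of phenols, stood at 3.71, 0.961, 0.423, 0.713 and 0.959 CPM in medium dose livers, against 0.318, 0.773, 0.551, 0.32 and 0.439 CPM in controls. Medium 1 was far above the others, the log2 fold change was 1.52 ± 0.60, and without medium 1 it was 0.68. UGT1A6 averaged 30.6 ± 12.8 CPM at the high dose (SD, n = 5). PAPSS1, which makes the sulfate donor of sulfation, was higher in every medium dose liver than in any control, at 24.6 ± 2.06 CPM and 20.7 ± 1.53 CPM (SD, n = 5 each). GSTO1, a glutathione transferase, had 1.18 ± 0.116 CPM in medium dose livers and 2.16 ± 0.890 CPM in controls (SD, n = 5 each), with control 3 below all medium dose livers. Of 51 antioxidant and glutathione genes, 1 was higher and 0 lower (1.96%, against 4.33% of all tested features), with a median of 0.02. That gene was PRDX6, a peroxiredoxin, with a log2 fold change of 0.38 ± 0.16.

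The interferon response list leaned to lower levels in medium dose livers, with a mean level that stood apart only in control 4 and control 5. Which controls were high differed between its genes. Of 34 tested genes 0 passed the adjusted test, 9 were lower (26.5%, against 2.12% of all tested features) and 0 higher, and the median log2 fold change was -0.34. The list's mean level was 2.91, 2.94, 2.92, 3.02 and 3.21 log2 CPM in medium dose livers, against 3.0, 3.21, 2.75, 3.69 and 4.22 log2 CPM in controls. The medium dose livers thus lay close together inside the control range, and control 4 and control 5 stood above all other livers. High dose livers had 2.68 to 3.06 log2 CPM. Without control 5, the control labelled day 16, 6 genes were lower and the median was -0.11. Over all libraries left out singly the count ran from 6 to 14.

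IFI6, an interferon-induced mitochondrial protein, showed this spread most. It stood at 3.19, 1.68, 3.12, 3.47 and 3.49 CPM in medium dose livers, against 3.90, 5.93, 1.72, 63.2 and 105 CPM in controls. Control 1 to control 3 were near the medium dose livers and control 4 and control 5 far above them. The log2 fold change was -3.60 ± 0.97, or -2.65 without control 5. EPSTI1 had 0.157, 0.761, 0.635, 0.19 and 1.13 CPM in medium dose livers, against 3.13, 2.96, 0.138, 3.9 and 0.933 CPM in controls. Control 3 and control 5 lay within the range of the medium dose livers or below it, and the other 3 controls above it. IRF1, a transcription factor of the pathway, had 3.61, 3.48, 4.76, 3.14 and 5.06 CPM in medium dose livers, against 5.22, 6.96, 3.99, 6.78 and 13.2 CPM in controls. For IRF1 only control 3 lay inside the medium dose range, and the other controls lay above it. STAT2, which carries the type I signal to the nucleus, had 21.9 ± 4.45 CPM in medium dose livers and 30.5 ± 7.10 CPM in controls (SD, n = 5 each). The others included the kinase EIF2AK2, ZNFX1, CMTR1 and HELZ2, with log2 fold changes between -1.37 and -0.40. The 12 tested macrophage markers had a median of -0.33, with MARCO and TLR4 lower at an unadjusted p under 0.05 (16.7%, against 2.12% of all tested features) and a mean level of 1.68 to 2.78 log2 CPM in medium dose livers and 2.34 to 2.72 log2 CPM in controls. The part of macrophage content in the interferon values was not tested.

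**Figure D5:**
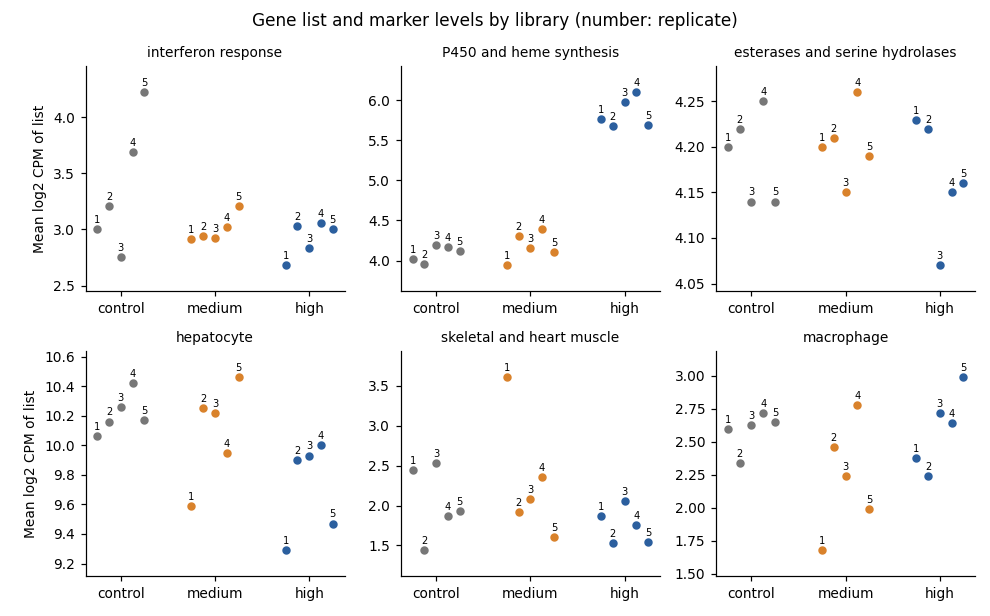
Mean log2 CPM over the tested genes of 3 gene lists (top) and 3 marker lists (bottom) in each library, in order of dose, with numbers for replicates. Medium dose livers lie between 2.91 and 3.21 for the interferon list while controls reach 4.22, both groups coincide for the P450 and esterase lists, and medium 1 has the lowest hepatocyte and macrophage and the highest muscle level of the 10 livers.

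In the leukocyte adhesion and NF-kB list, 3 of 40 tested genes were higher (VCAM1, TRAF1 and PTGS2) and 2 lower (TNFSF10 and ITGB2) at an unadjusted p under 0.05. Both directions together made 12.5% of the list, against 4.33% of all tested features, and the median was 0.04. PTGS2, the inducible prostaglandin synthase, stood at 1.57, 1.24, 1.16, 1.24 and 2.27 CPM in medium dose livers, against 0.862, 0.644, 0.826, 0.575 and 1.15 CPM in controls. Every medium dose liver was above every control, with a log2 fold change of 0.85 ± 0.29. TNFSF10, the death ligand TRAIL, had 29.3 ± 6.81 CPM in medium dose livers and 41.8 ± 10.9 CPM in controls (SD, n = 5 each).

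Markers of other tissues touched several of the low-count differences. Of 17 tested muscle genes, 3 were higher at an unadjusted p under 0.05 (TNNI2, MYL4 and TTN). That is 17.6%, against 2.20% of all tested features, and the list's median log2 fold change was 0.63. Medium 1 held 28.7 CPM of TTN against at most 4.42 CPM in any other of the 10 livers. MYL4 was highest in medium 5, at 19.1 CPM. Of 8 gut and pancreas genes, 1 was higher (VIL1, 12.5% of the list, against 2.20% of all tested features), with 6.37 CPM in medium 5. The list's mean level was 0.80 to 1.96 log2 CPM in medium dose livers and 0.35 to 0.90 log2 CPM in controls. Of 14 stellate cell and fibroblast genes, 2 were higher (14.3%, against 2.20% of all tested features), ACTA2 with a log2 fold change of 0.46 and TAGLN with 1.21. TAGLN was highest in medium 5, at 27.5 CPM, the library in which CNN1 was also highest. The part of these tissues in the values of CNN1, CAVIN4, VCAM1 and TRAF1 was not tested. Ribosomal protein genes, a sign of RNA quality, had a median of 0.05, and Z-linked genes, which follow embryo sex, a median of -0.05. That median hides a split between livers in some Z-linked genes. HINT1 had 27.5, 33.5 and 32.6 CPM in medium 1, medium 5 and control 3, against 63.6 to 80.6 CPM in the other medium dose and control livers. ATP5F1A had 1242, 1278 and 1331 CPM there, against 2213 to 2627 CPM. NDUFS4 had 70.2, 66.8 and 56.8 CPM in medium 1, medium 5 and control 3, against 125 to 148 CPM. APTX had 10.6, 12.4 and 11.2 CPM there, against 18.5 to 23.6 CPM. CHD1, UBAP2, SMAD4 and RAD23B were not lower in these livers. The same livers gave the libraries least like the rest. Whether the livers differ in sex was not tested.

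Plasma protein genes had a median of -0.07 over 68 tested. At an unadjusted p under 0.05, 2 were higher and 1 lower (4.41%, against 4.33% of all tested features). APOA4, an apolipoprotein of lipid-rich particles, stood at 1139, 374, 359, 527 and 446 CPM in medium dose livers, against 162, 277, 147, 226 and 315 CPM in controls. Every medium dose liver was above every control. Its log2 fold change was 1.34 ± 0.41, or 0.92 without medium 1. APOA5, which aids triglyceride clearance, had 335 ± 66.5 CPM in medium dose livers and 203 ± 66.1 CPM in controls (SD, n = 5 each). ITIH3, a carrier of hyaluronan, had 145 ± 42.9 CPM in medium dose livers and 280 ± 166 CPM in controls (SD, n = 5 each), and its highest values were again in control 4 and control 5, at 388 and 506 CPM.

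Lipid genes showed small differences in both directions. Of 36 tested genes of fatty acid oxidation and ketogenesis, 2 were higher and 2 lower (11.1% in either direction, against 4.33% of all tested features), with a median of 0.06. ACADL, an acyl-CoA dehydrogenase, had 1165 ± 119 CPM in medium dose livers and 957 ± 122 CPM in controls (SD, n = 5 each). It fell at the high dose relative to the medium dose by 0.63 ± 0.13 on the log2 scale, with an edgeR adjusted p of 0.0197, a call that 3 of 23 alternatives lost. ACOX2, a peroxisomal oxidase of bile acid side chains, was lower in every medium dose liver, at 126 ± 14.3 CPM, against 150 ± 7.71 CPM in controls (SD, n = 5 each). PPARA, the receptor that drives fatty acid oxidation, had a log2 fold change of -0.30 ± 0.14.

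Genes of fatty acid and triglyceride synthesis had a median of -0.02. Of 40 tested, 1 was higher and 2 lower (7.50% in either direction, against 4.33% of all tested features). LPIN1, a phosphatidate phosphatase, had 3.40, 0.881, 8.10, 2.42 and 5.67 CPM in medium dose livers, against 1.41, 2.13, 1.79, 2.69 and 1.65 CPM in controls, a range that enclosed the controls. GPAM, the first acyltransferase of triglyceride synthesis, had 81.2 ± 13 CPM in medium dose livers and 100 ± 16.5 CPM in controls (SD, n = 5 each). Cholesterol synthesis and uptake genes had a median of -0.05 over 32 tested.

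Bile acid synthesis genes had 4 of 14 tested members lower (28.6%, against 2.12% of all tested features) and 0 higher at an unadjusted p under 0.05, with a median of -0.10. These were ACOX2, AKR1D1, CYP27A1 and KLB. AKR1D1, the reductase that sets the bent ring of bile acids, stood at 204, 501, 490, 349 and 503 CPM in medium dose livers, against 714, 376, 595, 700 and 680 CPM in controls, a log2 fold change of -0.58 ± 0.27. AKR1D1 rose at the high dose relative to the medium dose by 1.55 ± 0.27 on the log2 scale, with an edgeR adjusted p of 0.00757, so that the high dose lay above both other groups. CYP27A1, which starts the acidic pathway, had 38.6 ± 9.85 CPM in medium dose livers and 49.6 ± 5.50 CPM in controls, and KLB, the FGF co-receptor beta-klotho, had 131 ± 22.4 CPM and 164 ± 14.8 CPM in the same order (SD, n = 5 each). With single libraries left out, between 1 and 4 members were lower.

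Stress and growth lists had medians near 0. Heat shock genes had 0 of 43 higher or lower at an unadjusted p under 0.05 (0%, against 4.33% of all tested features). Their median was 0.02. Genes of endoplasmic reticulum and amino acid stress had a median of 0.01. Of 38 tested, 0 were higher and 1 lower (2.63%, against 4.33% of all tested features). That gene was DNAJB9, a chaperone of the endoplasmic reticulum, with 8.37 ± 0.483 CPM in medium dose livers and 11.3 ± 2.41 CPM in controls (SD, n = 5 each). Of 59 cell division genes 1 was higher and 0 lower (1.69%, against 4.33% of all tested features), with a median of 0.05. It was GADD45B, a stress-induced inhibitor of growth, with 5.45 ± 1.47 CPM in medium dose livers and 3.60 ± 0.712 CPM in controls (SD, n = 5 each). GADD45B fell at the high dose relative to the medium dose, to 2.54 ± 0.656 CPM (SD, n = 5), with an edgeR adjusted p of 0.0171, a call that 2 of 23 alternatives lost. Of 43 nuclear receptor and hormone handling genes 0 were higher and 1 lower (2.33%, against 4.33% of all tested features). Their median was -0.09.

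The most abundant features were liver and housekeeping genes, and those named here had an unadjusted p of at least 0.458. ALB, albumin, stood at 97371, 193717, 156101, 145159 and 128435 CPM in medium dose livers, against 163532, 141290, 182556, 153446 and 136469 CPM in controls. Its log2 fold change was -0.11 with a 95% interval of -0.55 to 0.34. TF, named ovotransferrin, GAPDH, APOB, APOA1, LDHB, COX1, ITIH2 and FGA had log2 fold changes between -0.15 and 0.14. FGA, a fibrinogen chain, was set apart in 1 liver, medium 5, with 14208 CPM.

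Features with the largest folds among those called at the high dose show where the medium dose stood on them. Both contrasts use the control libraries, and these features were chosen on the high dose contrast, so only their values are given. Besides the P450 features above, they include a gastrin/cholecystokinin-like peptide, SLC34A1 and ABCA13. Their calls between high and medium dose were lost under 13 of 23 alternatives for the peptide, 11 of 23 for SLC34A1 and 17 of 22 for ABCA13. The peptide had 9.20, 1.32, 0.582, 0.428 and 0.262 CPM in medium dose livers, against 0.363, 0.0644, 0.138, 0 and 0.824 CPM in controls, and a mean of 85.7 ± 102 CPM at the high dose (SD, n = 5). Medium 1 again stood apart. SLC34A1, the phosphate carrier of kidney tubules, had 3.35 ± 1.26 CPM in medium dose livers and 3.41 ± 1.33 CPM in controls (SD, n = 5 each). Its high dose mean of 256 ± 532 CPM rested mostly on 1208 CPM in high 1. That library had the highest level of the kidney markers, of which SLC34A1 is itself a member. The remaining high dose livers had 12.6, 32.4, 18.0 and 11.3 CPM, each above every medium dose liver and every control. ABCA13, a large lipid transporter, had 11, 8.37, 0.265, 2.95 and 3.49 CPM in medium dose livers, against 0.0907, 7.54, 11.8, 0 and 13.7 CPM in controls. In both groups it varied from near 0 to over 10 CPM.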

How the data were processed

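Liver RNA was measured by sequencing in 15 quail libraries. The deposited table holds the authors' raw read counts per protein name, made with Seq2Fun by the name of the table, with settings not given in the sources used here. The submitters' processing notes name edgeR without a role. The table for cormorant and its 14 columns were not used here.

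The fit used edgeR 4.0.16 under R 4.3.3, with TMM scaling, filterByExpr (minimum count 10, minimum total 15) and its robust quasi-likelihood test, over all 15 quail libraries with no block. Calls needed an adjusted p (Benjamini-Hochberg, 14927 features) under 0.05. SE is the log2 fold change over the root of F, and the 95% interval uses the t quantile. Counting intervals cover counting error only. The steps were tested on simulated data. Alternatives used DESeq2 1.42.0, limma 3.58.1 and those in the closing section. Replicate numbers are not stated to pair the samples. Deviations from group means correlated by -0.09 to 0.08 between medium dose and control livers of equal number, which cannot decide whether batches were shared.

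Protein names were matched to 908 of 1010 listed symbols, of which 783 were tested. Where several names matched, the one with the highest total was taken. Names ending in like have no symbol. Reads of similar proteins may be divided among names. List levels are mean log2 CPM with a prior count of 2.

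The comparison, gene lists and naming rule were chosen with earlier results of these data known. The rule names the 12 smallest p per direction among features with a symbol and a mean log2 CPM not below 0, P450 and esterase members, up to 4 members of other lists, 10 features with the largest fold at the high dose, 8 folds per direction without overlap and the 10 most abundant. The marker genes of other tissues and further members of lists were added where their counts are given, and acetylcholinesterase-like falls outside the rule. Some features that these rules and lists cover are not reported.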

Additional observations from a re-analysis of the deposited data

Results flagged for a closer look

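Dixon's test for a single liver apart from the other 4 of its group was run on 222 groups of CPM values, and 14 (6.31%) passed the 95% critical value, where chance flags about 1 in 20 groups. In medium 1, MIF stood at 1002 CPM against 500 to 593 CPM in the other 4 medium dose livers, and APOA4 at 1139 CPM against 359 to 527 CPM. In the same liver UGT1A6 had 3.71 CPM against 0.423 to 0.961 CPM, and PNPLA6 had 9.99 CPM against 7.50 to 8.08 CPM. APOB there had 13100 CPM against 8524 to 9692 CPM, and the gastrin/cholecystokinin-like peptide 9.20 CPM against 0.262 to 1.32 CPM. Medium 1 was also the library with the highest muscle markers and the lowest hepatocyte markers of the 10, and their part in these values was not tested.

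In medium 5, CNN1 stood at 8.55 CPM against 0.641 to 1.67 CPM and FGA at 14208 CPM against 3635 to 5444 CPM. In medium 2, NR1I3 was high at 9.93 CPM against 2.77 to 4.34 CPM, and IFI6 was low at 1.68 CPM against 3.12 to 3.49 CPM. Among controls, CYP1A1 had 55.3 CPM and CYP1A4 had 595 CPM in control 3, against 31.8 to 37.2 CPM and 358 to 394 CPM in the other 4. AADAC had 222 CPM in control 4 against 109 to 136 CPM. CYP3A37 had 3.84 CPM in control 5, the liver labelled day 16, against 0.773 to 1.51 CPM.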

How the results depend on the processing

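Between medium dose and control, the count of features called was 0 under 22 of 23 alternatives and 6 with DESeq2. The replicate block, with numbers not stated to pair the samples (own number best in 1 of 5), also gave 0. The count at an unadjusted p under 0.05 ran from 508 to 874, and the count with an interval within 2-fold from 11429 to 12374. High against medium dose gave 282 calls, 128 with only these groups fitted, 187 with the replicate block, 614 with DESeq2, 170 without medium 1, medium 5 and control 3 (chosen after seeing the data) and 166 to 391 with 1 library left out. High dose against control gave 531 calls, 974 with DESeq2 and 303 to 659 with 1 library left out. Features whose groups do not overlap, 133 in all, numbered 191 to 311 with 1 library left out (109 to 176 higher, 82 to 161 lower), since smaller groups overlap less. Without the 3 libraries they numbered 1012 (520 higher, 492 lower). Those 3 were also the libraries least like the rest, and the part of group size in that rise was not tested. With library totals alone, 43 were higher. The cause of the other shifts was not tested. For 97 named genes, 2220 of 2226 medium against control values under an alternative stayed past no threshold, and 6 passed with DESeq2. Below 1 CPM the intervals mostly reached past 2-fold, and the parts of depth and of spread between livers were not tested.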
